A study of Mus musculus with 2 samples.

Results

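The genes described here are 10 regulators of early lineage choice in the mouse, each of which was the closest gene of a Bcl3 peak in mouse embryonic stem cells. They comprise 4 signal genes, namely the ligands Bmp4, Nodal and Wnt5a and the receptor Fgfr1, and 6 transcription factor genes, namely Sox17, Foxa1, Twist1, Nkx2-5, Pax6 and Tead4. The genes were taken by name from the authors' sheet of closest transcripts and from their wider gene annotation, and all peaks listed for them were used. They were thus selected on the measured peaks of this library, with the fold enrichments of their peaks known. These came to 13 of the 1130 listed peaks, 10 with the gene as closest gene and 3 from the wider annotation only. The presence, strength and place of these peaks are therefore a description, with no test.

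The data came from 1 chromatin immunoprecipitation and sequencing (ChIP-seq) library prepared with an anti-Bcl3 antibody from enzyme-digested nuclei, and 1 input library was labelled beside it. Both came from CGR8, an established mouse embryonic stem cell line, grown on 0.1% gelatin with 15% serum replacement and 1000 U/ml of leukemia inhibitory factor (LIF). The cells carried no labelled treatment, mutation or differentiation step, and the input library was not analysed here. With 1 library a group there is no replicate error, and the read depth is unknown.

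Bcl3 is a nuclear member of the IκB family that reaches DNA by binding p50 and p52, subunits of NF-κB. BMP4, NODAL and WNT5A are secreted ligands, and FGFR1 is a receptor tyrosine kinase for fibroblast growth factors. Such signals pattern the early embryo, and cells answer them partly by switching on transcription factors that set a lineage. SOX17 and FOXA1 act in endoderm, TWIST1 and NKX2-5 in mesoderm, PAX6 in neural and eye tissue, and TEAD4 in the trophectoderm. In undifferentiated stem cells many genes of this kind are held at low expression. Expression was not measured in this series, and the label of the cells could not be set against marker levels.

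Across all 1130 peaks the greatest log2 fold enrichment in the peak, an authors' value whose denominator the header does not name, had a median of 2.93 and ran between 2.48 and 4.02. Its values were coarse, with 491 distinct values over the list, and 78.4% of peaks shared their value with another peak. The authors' false discovery rate was 0.179 at its lowest and 0.619 at its highest, and 0 peaks lay at or below 0.05. A peak at any gene below is therefore a listed candidate site.

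Signal gene peaks all lay at least 3 kb from the listed transcription start site (TSS). Within 2 kb of it lay 4 of the 6 transcription factor peaks. Of the 623 peaks with a closest transcript, at least 182 lay within 2 kb. These marks describe the values of few genes, and the contrast was not tested. Measured between peak midpoint and the TSS of the wider annotation, the signal peaks lay 3302 bp (Nodal), 3591 bp (Wnt5a) and 4374 bp (Bmp4) downstream and 5406 bp (Fgfr1) upstream. The transcription factor peaks lay 118 bp (Tead4), 889 bp (Twist1), 3245 bp (Foxa1) and 13186 bp (Pax6) downstream, and 194 bp (Sox17) and 1503 bp (Nkx2-5) upstream. The median absolute distance was 3982.5 bp for the signal genes and 1196 bp for the transcription factors, and the ranges overlapped. It was 7573 bp over the 623 peaks, where the closest gene had a start in the wider annotation. In all, 8 of the 10 genes had a peak midpoint within 5 kb of their TSS, 3 of 4 signal genes and 5 of 6 transcription factors. The same held for at least 38.9% of the 592 genes that were closest to a peak. It held for at least 1.26% of the 21900 protein-coding genes of the RefSeq table. These shares and the 182 peaks are minimums, because genes without a matched start in the wider annotation were counted as not near. All 10 genes had such a start.

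**Figure D1:**
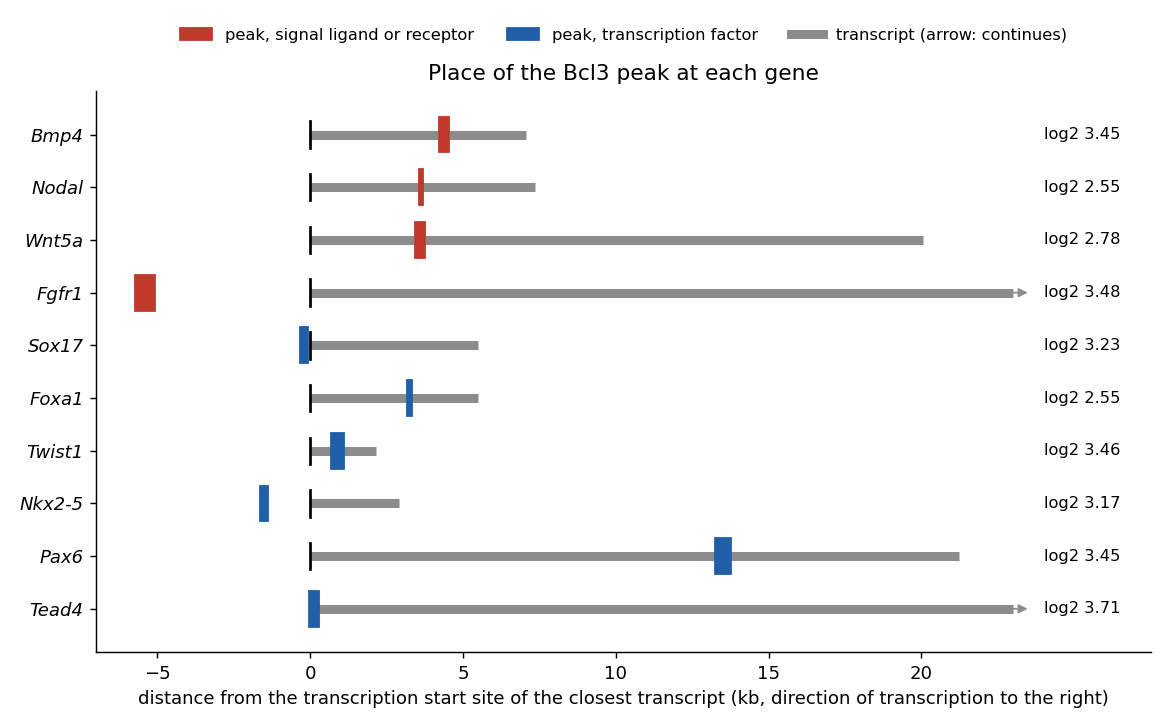
Place of the peak at each of the 10 genes. The x axis is the distance in kb from the TSS of the closest transcript, with transcription to the right, and red (signal genes) or blue (transcription factors) blocks span the peaks. Grey bars are the transcripts, black ticks their starts, and the number at the right is the log2 fold enrichment. The peaks of Tead4 and Sox17 touch or adjoin the start, and that of Pax6 lies farthest into its gene.

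The Bmp4 peak covered the start of the protein-coding sequence. Bmp4 encodes a ligand that, with LIF, supports self-renewal of mouse embryonic stem cells and that directs mesoderm and surface ectoderm in the embryo. Its peak, on chromosome 14 at 47005725 to 47006074 in build mm9, was 350 bp long and had a log2 fold enrichment of 3.45, which is 10.9-fold. It held 306 bp of intron 2, 7 bp of 5' UTR and 37 bp of coding sequence, and its midpoint lay 138 bp before the coding start. The authors' sheets name this place differently, as intron in the class table and as 5' UTR in the wider annotation. Of the 623 peaks with a closest transcript, 29 covered a coding start in the same way. Bmp4 was the signal gene with the nearest neighbour, LOC100041724, whose start lay 6.76 kb from the peak.

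The other ligands had their peaks well inside the first intron. Nodal, which encodes the TGF-β family ligand of mesendoderm and left-right patterning, had a peak of 150 bp on chromosome 10 at 60884275 to 60884424. The nearest exon was 1305 bp away, in an intron of 4486 bp. Its log2 fold enrichment of 2.55 (5.84-fold) was the lowest of the 10 genes, with a false discovery rate of 0.592. Wnt5a encodes a ligand known mainly for β-catenin-independent signalling, in cell movement and axis elongation. Its peak of 300 bp, on chromosome 14 at 29322100 to 29322399, lay 2609 bp from the nearest exon in an intron of 5708 bp, at 2.78 (6.89-fold) and a rate of 0.402. The Nodal distance depended on the sheet, 3302 bp in the wider annotation and 3630 bp by the closest transcript, whose listed start lies farther upstream. The start used by the wider annotation coincides with the coding start of that transcript, also 3302 bp from the midpoint. The authors' class table also places the Wnt5a peak within 10 kb upstream of a start, which was not identified here.

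Fgfr1 was the signal gene with the longest peak and the highest fold enrichment, and the only gene of the 10 with 3 listed peaks. FGFR1 is a receptor through which FGF4 moves stem cells out of the naive state. The peak on chromosome 8 at 26623525 to 26624149 spanned 625 bp, wholly upstream of the gene, with a log2 fold enrichment of 3.48 (11.1-fold). A further peak at 26366850 to 26367299 lay 262.2 kb upstream of Fgfr1, with 3.44 and the same lowest rate of 0.179. It had no closest transcript, and the nearest listed start, of Tacc1, was 55.2 kb away. The third, at 26126900 to 26127224 and 502.2 kb upstream, had 2.93 and a rate of 0.296, and it lay 0.331 kb from the start of Adam9. Both distant peaks thus had another gene's start nearer to them than that of Fgfr1.

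Among the transcription factors, Tead4 had the peak with the highest fold enrichment, at the start of the gene. TEAD4 is the DNA-binding partner of the cofactor YAP1 and is needed for the trophectoderm. The peak, on chromosome 6 at 128250550 to 128250874, reached from 44 bp upstream to 280 bp downstream of the TSS. It thus held 44 bp upstream sequence and 281 bp of the 5' UTR in exon 1, and it had a log2 fold enrichment of 3.71 (13.1-fold). Counting this peak, 1.68% of all peaks reached as high. By the authors' Poisson score, described below, it was near the bottom of the list, with 1.77% of all peaks lower. Of the 10 closest-gene peaks it alone covered the TSS, as did 38 of the 623 peaks with a closest transcript (6.1%).

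The endoderm factors differed in both place and strength. Sox17, a gene of definitive and extraembryonic endoderm, had a peak of 275 bp on chromosome 1 at 4486550 to 4486824, which spanned 331 to 57 bp upstream of the TSS, at 3.23 (9.37-fold). Foxa1, which encodes a pioneer factor of the forkhead family, had a peak of 175 bp on chromosome 12 at 58643775 to 58643949. It lay wholly in the coding sequence of exon 2, at 2.55 (5.85-fold) and a rate of 0.592, against 0.187 for Sox17. Foxa1 was also listed for a peak 316.0 kb downstream (2.86), whose closest transcript was that of Prps1l3. The nearest listed start, 0.274 kb away, was of the same gene, which the wider annotation names AU021838.

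The mesoderm factors had 1 peak each, on either side of the start. Twist1, a basic helix-loop-helix gene of mesoderm and neural crest, had a peak of 450 bp on chromosome 12 at 34643200 to 34643649, from 665 to 1114 bp downstream of the TSS, at 3.46 (11.0-fold). It covered 263 bp of coding sequence, 40 bp of 3' UTR and 147 bp of intron, and so the end of the coding sequence, which only 5 of the 623 peaks did. Nkx2-5, a homeobox gene of the heart field, had a peak of 275 bp on chromosome 17 at 26979875 to 26980149, from 1640 to 1366 bp upstream, at 3.17 (8.98-fold) and a rate of 0.213.

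Pax6, the paired-box gene of eye and forebrain, had its peak deep in the gene. The peak, on chromosome 2 at 105529525 to 105530049, was 525 bp long and had a log2 fold enrichment of 3.45 (10.9-fold). It lay in intron 7, 1672 bp from the nearest exon in an intron of 5621 bp. The Pax6 distance was 13186 bp by the wider annotation and 13502 bp by the closest transcript. On another build, GRCm38.p6, Pax6 has a promoter beginning at 105668646 on chromosome 2 and a further one at 105682213. Positions were not carried between builds, so whether the second start lies nearer to the peak was not tested. Pax6 and Bmp4 had the same log2 fold enrichment, a value that 8 of all peaks shared.

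**Figure D2:**
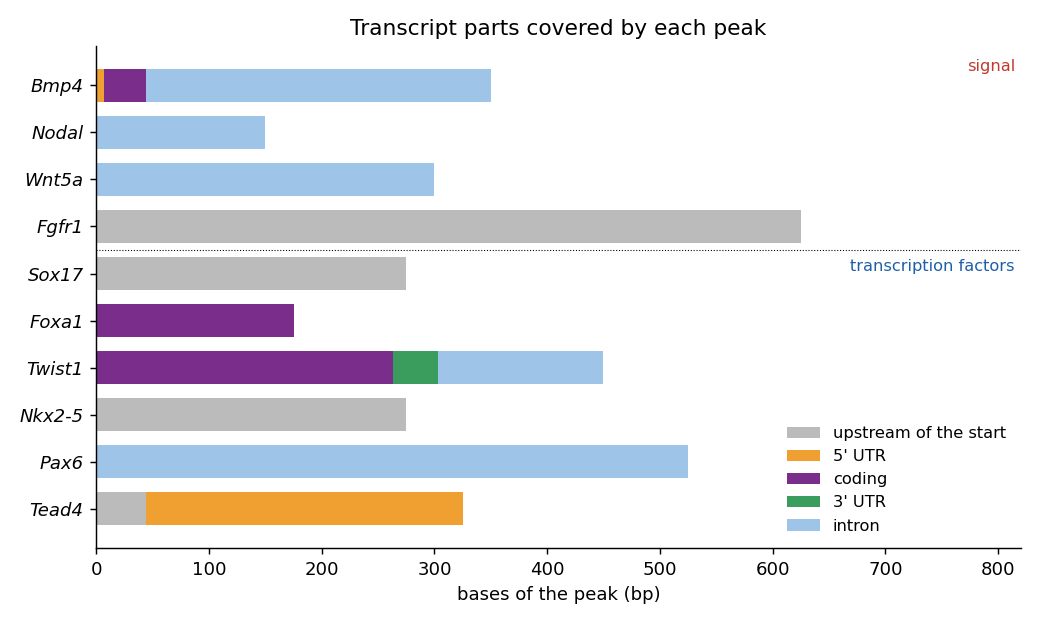
Transcript parts covered by each peak. The x axis is the number of bases of the peak, and colours mark the part of the closest transcript, stacked by kind and not by position. Of the signal gene peaks, that of Bmp4 reached an exon, and those of Foxa1, Twist1 and Tead4 did so among the transcription factors. These are 4 of the 10 peaks, against 148 of the 623 peaks with a closest transcript (23.8%). The difference between the classes was not tested.

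By place, 7 of the 10 peaks had their midpoint inside the gene, 3 of 4 at signal genes and 4 of 6 at transcription factors, against 71.1% of the 623 peaks with a closest transcript. The 3 others lay upstream, against 17.8%, and 0 of the 10 lay past the end of the gene. The rest of the 623 peaks lay past the end, a minority as well. Coding sequence was touched by 3 of the 10 peaks, those of Bmp4, Foxa1 and Twist1, against 14.9% of the 623. In all 10 cases the nearest listed start was that of the gene itself, which held for at least 430 of the 623 peaks (69.0%). That share is a minimum, because symbols were compared between sheets. A gene named differently in the wider annotation, or absent from it, was not counted. The next gene's start was a median of 58.6 kb away at the 10 genes and 48.4 kb over the 623 peaks. It was nearest at Bmp4 and farthest at Wnt5a, where the start of Lrtm1 lay 509.2 kb away and only 4 genes were listed for the peak.

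The ranges of peak strength of both classes overlapped. The signal genes had a median log2 fold enrichment of 3.12 and a mean of 3.06 ± 0.47 (SD over 4 genes), and the transcription factors a median of 3.34 and a mean of 3.26 ± 0.40 (SD over 6 genes). The SDs describe the spread between genes in 1 library, not between experiments. The difference of the medians, signal minus transcription factor, was −0.22 and was not tested. Fgfr1 (3.48), Twist1 (3.46), Bmp4 and Pax6 (both 3.45) lay close together across the classes, and so did Nodal and Foxa1 (both 2.55) at the low end. It was −0.0001 among the peaks at the lowest false discovery rate, −0.55 without Fgfr1, and 0.013, the opposite sign, in the upper 565 peaks by fold enrichment. Peak length also overlapped, with medians of 325 bp at signal genes and 300 bp at transcription factors, against 225 bp over the 623 peaks.

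**Figure D3:**
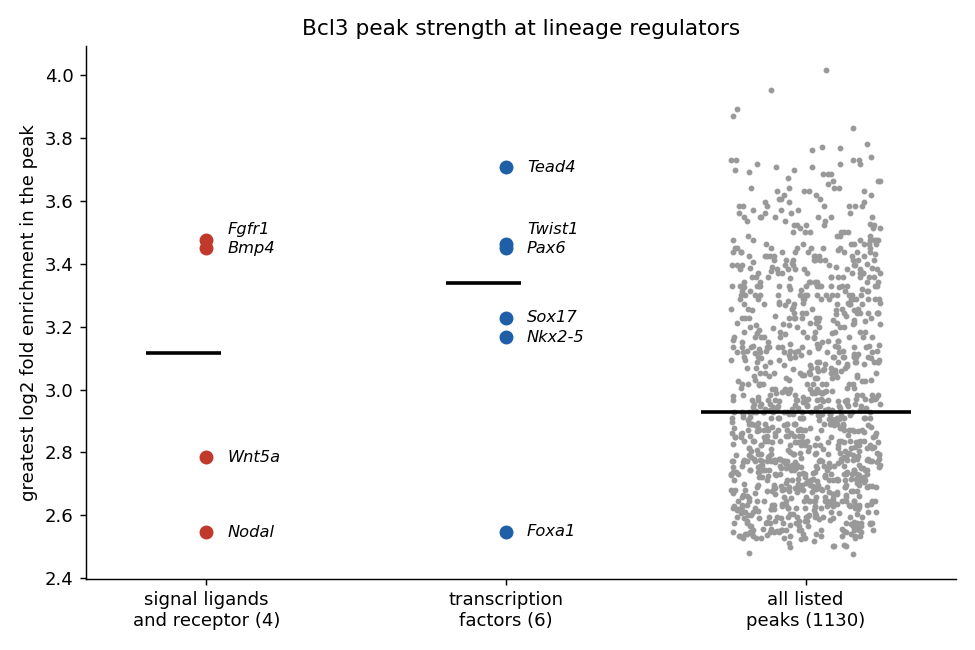
Greatest log2 fold enrichment of the closest-gene peak at the 4 signal genes and the 6 transcription factors, beside all 1130 listed peaks. Points are peaks and black lines are medians (3.12, 3.34 and 2.93). Each class spans nearly the range of the other, from 2.55 to 3.48 and from 2.55 to 3.71.

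At the lowest false discovery rate stood 5 of the 10 peaks, those of Bmp4, Fgfr1, Tead4, Twist1 and Pax6, which is 2 of 4 signal genes and 3 of 6 transcription factors. The background was 21.1% of all listed peaks and 23.8% of the peaks with a closest transcript. The rate follows the rank by enrichment, and the genes were chosen with these values known, so nothing is read from this count. Of the 10 peaks, 7 were in the upper 565 by fold enrichment, as were 320 of the 623 peaks with a closest transcript. Nothing is read from this count either.

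The Poisson score gave another order. The −log10 of the smallest Poisson p in the peak, also an authors' value, was highest for Nodal (6.68), the gene with the lowest fold enrichment, and lowest for Tead4 (5.02), the gene with the highest. Between them lay Sox17 (5.84), Bmp4 (5.76), Twist1 (5.55), Foxa1 (5.43), Wnt5a (5.22), Nkx2-5 (5.19), Fgfr1 (5.16) and Pax6 (5.12). The lowest score among the 623 peaks with a closest transcript was 5.00. Wnt5a, Nkx2-5, Fgfr1, Pax6 and Tead4 thus lay near the low end, with at most 18.3% of all peaks lower. The median was 5.49 for the signal genes and 5.31 for the transcription factors, so the classes stood in the opposite order to fold enrichment. Over all 1130 peaks the median was 5.80, and only Nodal and Sox17 of the 10 genes lay above it. None of the 5 peaks at the lowest false discovery rate was in the upper 565 peaks by Poisson score, which held 123 of all 238 such peaks (51.7%).

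**Figure D4:**
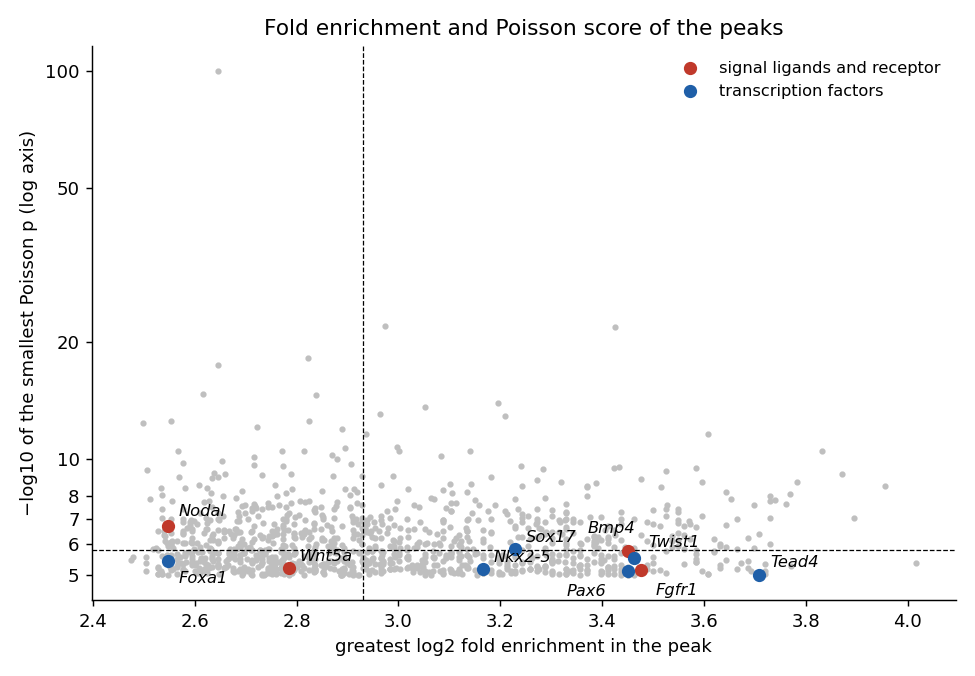
Fold enrichment (x axis, log2) against the Poisson score (y axis, −log10 p on a log axis) of the 1130 peaks, in grey, with the closest-gene peaks of signal genes in red and of transcription factors in blue. Dashed lines are the medians over all peaks, 2.93 and 5.80. Of the 10, the Tead4 peak lies lowest and farthest to the right, and the Nodal peak highest and farthest to the left.

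In each class, 3 relatives of these genes were closest to a peak. The lists held 126 genes of the signal families (TGF-β, BMP and Nodal ligands, their receptors, antagonists and SMADs, Wnt ligands and receptors, FGF ligands and receptors). Leaving out the 4 signal genes above, 3 of 122 were the closest gene of a peak (2.46%), near the background of 2.52% of all protein-coding genes. These were Smad2, the signal transducer of Nodal, with a peak in intron 1 (log2 fold enrichment 2.76), Fgf4, a ligand of FGFR1, with a peak 6272 bp downstream of the TSS and past the gene's end (3.08), and Fgf14, with a peak in intron 1 (2.71). No other ligand of the TGF-β family (0 of 31) or the Wnt family (0 of 18) was a closest gene, and neither was a receptor of the TGF-β and BMP (0 of 15), Wnt (0 of 15) or other FGF (0 of 4) lists.

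Among the transcription factor families, 3 of 72 genes other than the 6 were closest genes (4.17%, against the same background of 2.52%). Sox6 had a peak in intron 8 (3.20), 407.1 kb from the TSS. Foxa2, a forkhead factor of endoderm and notochord, had one 5842 bp downstream of the TSS and past the gene's end (2.72). Vgll3, a cofactor of the TEAD factors, had one 72 bp downstream of the start of its closest transcript, in coding exon 1 (3.24), but was not among the genes of the wider annotation. No other member of the Pax (0 of 8), Nkx (0 of 13) or Twist, Hand and mesoderm helix-loop-helix (0 of 11) lists was a closest gene. By the starts of the wider annotation, 0 of the 122 other signal genes and 1 of the 72 other factor genes (1.39%) had a peak within 5 kb, against 1.26% of all protein-coding genes. That gene was Nkx2-2, with a peak 3075 bp upstream (2.67). This count leaves out Vgll3, whose start is not in that annotation. In the wider annotation, which can list a gene far from the peak, 61 of the 122 other signal genes and 31 of the 72 other factor genes (43.1%) were listed, against 40.4% of all protein-coding genes.

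Promoter sequence was available for part of the genes, from the RefSeq table on build GRCm38.p6, which is not the build of the peaks. Bmp4, Nodal, Foxa1, Twist1, Nkx2-5 and Pax6 matched by symbol, with 7 promoters of 300 bases (250 before and 50 after the start), 2 of them of Pax6, whereas Wnt5a, Fgfr1, Sox17 and Tead4 did not match. None of the 6 genes had its peak within 250 bp upstream or 50 bp downstream of the TSS listed in mm9. The κB consensus, the DNA motif of NF-κB subunits, was searched on both strands and was found in 1 of the 7 promoters, against 8.46% of the 32851 promoters of the table. That promoter is of Pax6, with a match on each strand that overlap in all but 1 base. GC content over the 300 bases ran from 46.3% to 66.0% in the 7 promoters, with the highest value at Twist1, against a median of 52.7% over the table. A match is a run of letters, not a bound site, and the GRCm38.p6 start need not be the start listed in mm9.

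The 250 bases before the start are shown for that Pax6 promoter (chr2:105668646-105668895, plus strand), with the κB consensus matches in capitals. They are also shown for Twist1 (chr12:33957421-33957670, plus strand), where no match was found. Twist1 was the matched gene whose peak lay nearest to its start listed in mm9. Both are given 5′ to 3′.
Pax6: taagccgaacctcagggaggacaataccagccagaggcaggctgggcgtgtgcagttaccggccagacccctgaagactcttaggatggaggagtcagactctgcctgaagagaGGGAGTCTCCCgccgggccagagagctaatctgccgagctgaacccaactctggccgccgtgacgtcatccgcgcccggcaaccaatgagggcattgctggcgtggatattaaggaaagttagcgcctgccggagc
Twist1: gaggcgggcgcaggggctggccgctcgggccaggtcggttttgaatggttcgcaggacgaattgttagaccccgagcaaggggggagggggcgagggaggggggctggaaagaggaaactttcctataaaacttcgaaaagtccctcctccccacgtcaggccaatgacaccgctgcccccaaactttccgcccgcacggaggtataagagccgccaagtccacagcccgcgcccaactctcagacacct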

How the data were processed

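A list of 1130 Bcl3 ChIP-seq peaks from 1 library formed the data, in build mm9 (submitters' processing notes). Neither the aligner, the peak caller nor the use of the input is given in the sources used here. The authors, per the file headers, deposited for each peak a log2 fold change, the −log10 of a Poisson p-value, a false discovery rate (taken as a q-value) and a score, the greatest T statistic, which was not used. Positions are printed as deposited and may be off by 1 bp between sheets. Left and right peak boundaries were not used.

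Distances run from the peak midpoint to the TSS of the deposited wider annotation, and transcript parts come from the exons of the closest transcript. Gene symbols were matched through RefSeq accessions and gene identifiers to a GRCm38.p6 table, used for names and gene class, with 623 of 623 closest entries and 14543 of 14602 wider entries matched. Placement was tested on simulated data of 200 transcripts and recovered 10000 of 10000 positions. Python 3.11.15 and pandas 2.3.3 were used.

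The genes and the 13 family lists (204 genes, all matched) were chosen with earlier results of these data known, and no test was made. Genes named are the 10, those with the nearest listed start to a peak of theirs, and list genes that were closest to a peak. Lrtm1, LOC100041724 and Prps1l3 were named after their values were seen, and Nkx2-2 completes a count of 1. Alternatives were stricter peak sets, other windows and the Poisson score. Peak sequences in mm9 were not analysed here.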

Additional observations from a re-analysis of the deposited data

How the results depend on the processing

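Of 33 alternatives, 14 left a count within 1.5 times or a difference of the same sign within the SD over single genes, a wide margin, 17 went beyond that and 2 turned the sign. The difference of the median log2 fold enrichment, signal minus transcription factor, was −0.22. Within that margin it was −0.0001 at the lowest false discovery rate (2 and 3 genes) and −0.55 without Fgfr1. It was 0.013 in the upper 565 peaks by fold enrichment (2 and 5 genes), −0.68 in the upper 565 by Poisson score (1 gene each), and 0.18 on the −log10 scale of the Poisson p. Genes whose peak lay at most 5 kb from the TSS, 8 in all, numbered 3 at the lowest false discovery rate, 5 in the greater fold set, 2 in the greater Poisson set and 3 within 1 kb. Peaks at the lowest rate, 5 of the 10, numbered 0 in the greater Poisson set. Signal family genes closest to a peak, 7 of 126 with the 4 described, numbered 2 at the lowest rate, 3 in the greater fold set, 3 in the greater Poisson set, 3 within 5 kb and 65 in the wider annotation. Transcription factor family genes, 9 of 78 with the 6 described, numbered 3 at the lowest rate, 2 in the greater Poisson set and 37 in the wider annotation. Peaks inside the gene, 7 of 10, numbered 4 at the lowest rate, 4 in the greater fold set and 1 in the greater Poisson set. The stricter sets hold fewer peaks by construction, and the cause of the other changes was not tested. No paired analysis was possible because each group has 1 library. Depth limits are unknown, since no read counts were used.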
